A study of Mus musculus with 13 samples.

Results

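Type I interferon-stimulated genes are the genes a cell turns on when an interferon binds its surface receptor. They were read here as a list of 39 mouse genes, taken as given and matched by gene identifier, in bulk RNA sequencing libraries of perivascular adipose tissue, which is fat that lies around blood vessels. All 39 matched a gene of the deposited count table, out of 34013 genes in all, and all 39 passed the filter on low counts that left 17270 genes to test. The 13 libraries came from C57BL/6 mice that had received splenocytes (spleen cells), and the groups are named by the donor. WTS-R recipients (3 libraries) had wild-type donors and NS-R recipients (3 libraries) had donors without Nlrp3, the sensor of an inflammasome. TS-R recipients (4 libraries) had donors with type 2 diabetes, and NTS-R recipients (3 libraries) had diabetic donors without Nlrp3. The genotype tag reads WT for WTS-R and TS-R and Nlrp3 KO for NS-R and NTS-R, without saying whether donor or recipient is meant. The sources used here give no age, time after transfer, diabetes model or preparation of the recipients. They also do not say which samples were separate animals, so p-values reflect spread among samples that may be technical.

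Type I interferons are secreted proteins that signal through a shared receptor and the kinases Jak1 and Tyk2. The signal assembles a transcription factor complex that holds Stat2 and Irf9 and binds an interferon-stimulated response element in the promoters of its target genes. Many products of these genes bind viral RNA, block translation or mark proteins, and several (Stat2, Irf9, Irf7) are themselves parts of the pathway. Type II interferon uses another receptor and acts through a different element, the GAS, and the targets of both types overlap. In fat, as in other tissues, adipocytes, vessel cells and resident immune cells can all respond.

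Promoter sequence was taken from RefSeq windows of GRCm38.p6 that hold 250 bases before and 50 bases after an annotated transcript start. Of the 39 genes, 28 had such a window. The response element core GAAANNGAAA, searched on both strands with overlaps allowed, was found in windows of 16 of these 28 genes (57.1%), against 3.99% of the 27025 genes in the table of windows. Windows with at least 2 cores belonged to 8 of the 28 genes and to 0.266% of all genes. The GAS core TTCNNNGAA, also searched on both strands, was found for 5 of the 28 (17.9%), against 9.55% of all genes. A match is a description of letters, not a measured binding site. Excerpts for 6 genes of these windows follow, chosen as examples of windows with 1, 2 or 3 cores, with Ifit3 and Ifit3b as a near-identical pair. Each runs 5′ to 3′ on the gene's strand over the 200 bases before the start, with cores on either strand in capitals. They lie at chr4:156200819-156201018 for Isg15 (minus strand), chr19:34640689-34640888 for Ifit1, chr19:34583329-34583528 for Ifit3 and chr19:34607757-34607956 for Ifit3b (all plus strand), chr12:26456453-26456652 for Rsad2 and chr5:120907526-120907725 for Oas1a (both minus strand).
Isg15: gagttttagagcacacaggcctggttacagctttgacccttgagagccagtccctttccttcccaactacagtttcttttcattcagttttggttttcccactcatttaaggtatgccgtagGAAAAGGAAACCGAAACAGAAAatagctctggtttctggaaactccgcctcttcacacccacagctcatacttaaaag
Ifit1: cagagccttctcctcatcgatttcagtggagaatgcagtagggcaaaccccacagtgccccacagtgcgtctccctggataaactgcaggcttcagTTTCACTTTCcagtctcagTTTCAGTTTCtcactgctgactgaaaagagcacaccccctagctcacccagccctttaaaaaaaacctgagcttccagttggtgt
Ifit3: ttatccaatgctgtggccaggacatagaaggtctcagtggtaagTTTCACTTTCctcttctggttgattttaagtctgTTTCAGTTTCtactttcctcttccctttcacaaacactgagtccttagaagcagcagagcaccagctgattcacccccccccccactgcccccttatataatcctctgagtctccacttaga
Ifit3b: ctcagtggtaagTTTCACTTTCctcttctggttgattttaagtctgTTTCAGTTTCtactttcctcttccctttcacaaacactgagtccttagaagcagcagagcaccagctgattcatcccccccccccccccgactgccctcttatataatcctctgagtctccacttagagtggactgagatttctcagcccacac
Rsad2: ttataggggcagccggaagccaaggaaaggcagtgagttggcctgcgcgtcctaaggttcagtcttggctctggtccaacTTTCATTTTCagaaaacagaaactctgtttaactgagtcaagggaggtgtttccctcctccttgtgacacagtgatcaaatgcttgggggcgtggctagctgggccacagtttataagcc
Oas1a: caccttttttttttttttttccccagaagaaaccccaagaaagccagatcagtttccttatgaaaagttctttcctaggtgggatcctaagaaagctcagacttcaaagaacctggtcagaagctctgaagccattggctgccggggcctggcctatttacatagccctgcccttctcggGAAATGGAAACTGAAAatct
Isg15 held 3 overlapping cores in a single run, with first bases at -78, -72 and -66 when the start base is counted as 0. Ifit1 held 2 (at -104 and -85), Ifit3 held 2 (at -156 and -122) and Ifit3b held 2 (at -188 and -154). Rsad2 held 1 (at -120) and Oas1a held 2 that overlap (at -20 and -14).

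**Figure D1:**
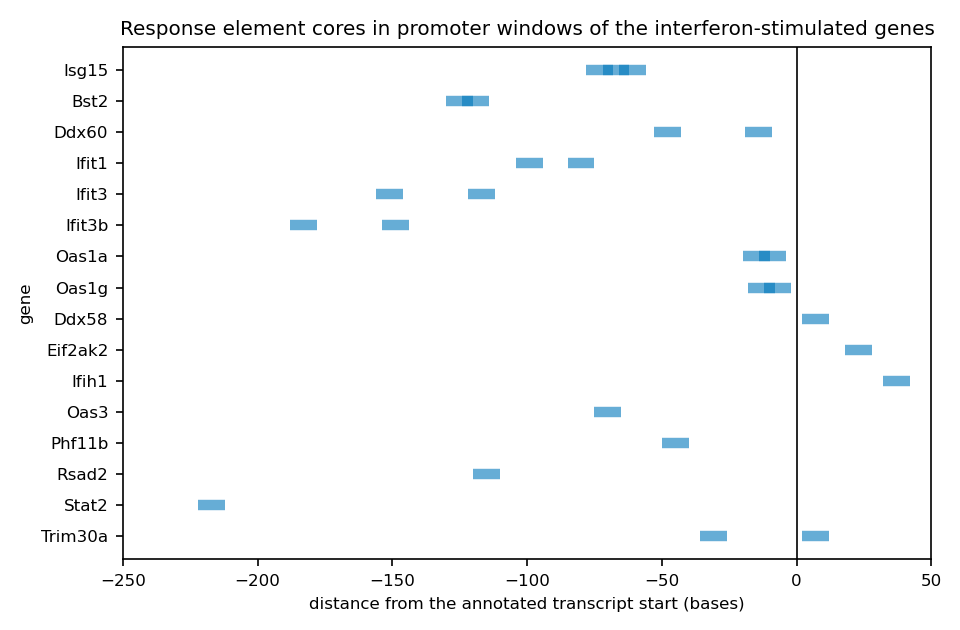
Positions of the response element core in promoter windows of the 16 genes that hold one, as distance in bases from the annotated transcript start (vertical line); each bar is 1 core, darker where cores overlap. Of 26 cores, 18 begin within the 150 bases before the start.

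The 13 libraries held 14216706 to 37011122 counts, so that a count of 0 allows up to 3 counts, or 0.0791 to 0.239 CPM (counts scaled to library size, after TMM, a correction for library composition); intervals and floors cover counting error only. Library content differed widely within groups. Adipocyte markers were present throughout (mean log2 level of 7 genes 8.03 to 10.4), and 6.11% to 36.7% of counts came from mitochondrial genes. TS-R replicate 3 stood apart, with the highest level of 10 T cell genes (6.17, against 0.448 to 4.98 elsewhere) and the lowest of adipocyte genes. NS-R replicates 1 and 2 stood apart in 7 airway epithelium genes, at levels of 5.78 and 7.375, against at most -0.140 elsewhere. NS-R replicate 1 also held the most counts of the series (37011122). TS-R replicate 3 and NS-R replicate 3 expressed Xist and the other libraries did not, so those 2 came from female tissue. Nlrp3 itself lay at 0.249 to 2.89 CPM and was not lower in NS-R (1.002, 0.460 and 1.58 CPM) than in WTS-R (0.641, 0.249 and 0.693 CPM), so it does not check the labels. No pair of libraries within a group matched within sampling noise (lowest chi-square per degree of freedom 32.4).

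The interferon-stimulated genes were highest in 2 libraries of different groups, WTS-R replicate 1 and NTS-R replicate 1. The level of the 39 genes, taken as the mean of log2(CPM + 0.5), reached 6.69, 3.63 and 4.48 in the WTS-R libraries and 5.03, 4.002 and 4.005 in the NS-R libraries. The TS-R libraries had 4.30, 4.29, 4.81 and 4.03, and the NTS-R libraries 6.08, 3.52 and 3.71. The group ranges overlapped in every pair of groups: the level was 4.94 ± 1.58 (SD, n = 3) in WTS-R, 4.34 ± 0.59 (n = 3) in NS-R, 4.36 ± 0.33 (n = 4) in TS-R and 4.44 ± 1.43 (n = 3) in NTS-R. WTS-R and NTS-R each held 1 library far above the others and also the lowest libraries of the series, NTS-R replicate 2 and WTS-R replicate 2. After those 2 libraries, NS-R replicate 1 had the next highest level, followed by TS-R replicate 3.

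**Figure D2:**
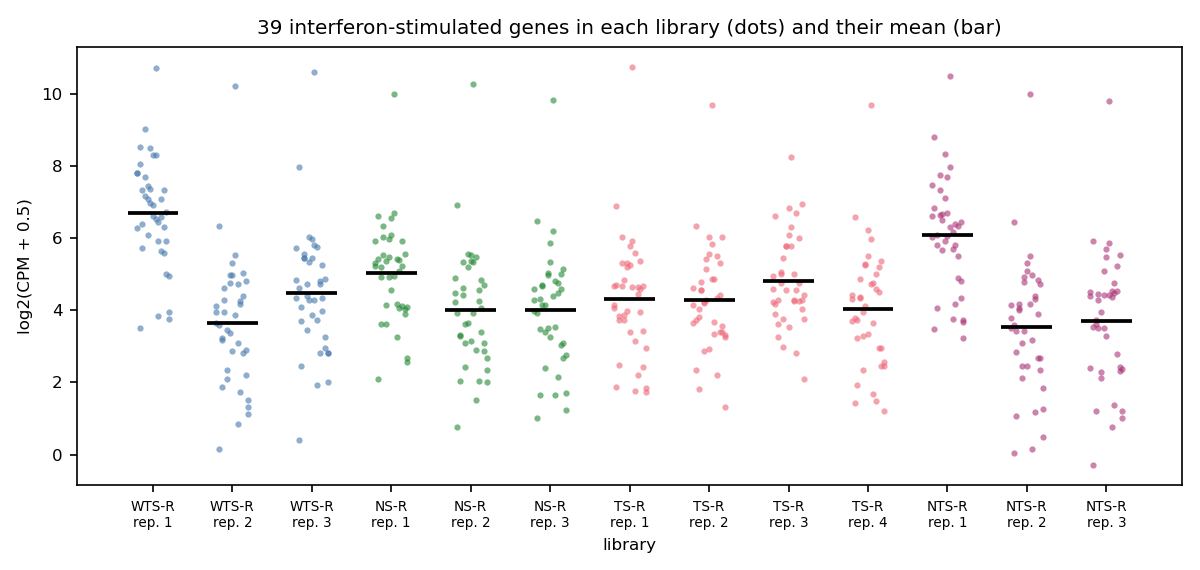
Level of each of the 39 genes (dots, log2(CPM + 0.5)) in each of the 13 libraries, coloured by group, with the mean over genes as a black bar. WTS-R replicate 1 (6.69) and NTS-R replicate 1 (6.08) lie above the other 11 libraries, which run from 3.52 to 5.03.

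WTS-R replicate 1 was the highest library for 32 of the 39 genes and among the 2 highest for all 39. Over all 17270 genes tested, it was the highest for 3.53%. WTS-R replicate 1 and NTS-R replicate 1 together were the 2 highest libraries for 32 of the 39 genes, against 1.62% of all genes. Both lay more than 2-fold above every other library for 13 of the 39, against 0.284% of all genes. These shares describe libraries picked by looking at the genes and carry no test.

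Within its own group, WTS-R replicate 1 exceeded the mean of the other WTS-R libraries by a median of 5.99-fold over the 39 genes, from 1.21-fold (Ifi27) to 18.9-fold (Ifit3b). It was more than 2-fold higher for 38 of 39, against 1.52% of the 15156 genes with a mean of at least 1 CPM. NTS-R replicate 1 exceeded the other NTS-R libraries by a median of 5.75-fold, from 1.51-fold (Ifi27) to 24.9-fold (Oas3), and by more than 2-fold for 38 of 39 (background 3.04%). NS-R replicate 1 was a weaker case, with a median of 1.93-fold, 17 of 39 genes more than 2-fold higher (background 1.76%), and Mx2 highest at 4.27-fold. The part of its airway gene content in these values was not tested. TS-R replicate 3 had a median of 1.46-fold and 9 of 39 genes more than 2-fold higher than the other TS-R libraries, but 13.9% of all genes did so in that library. No other library had more than 4 of the 39 genes more than 2-fold above its group.

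**Figure D3:**
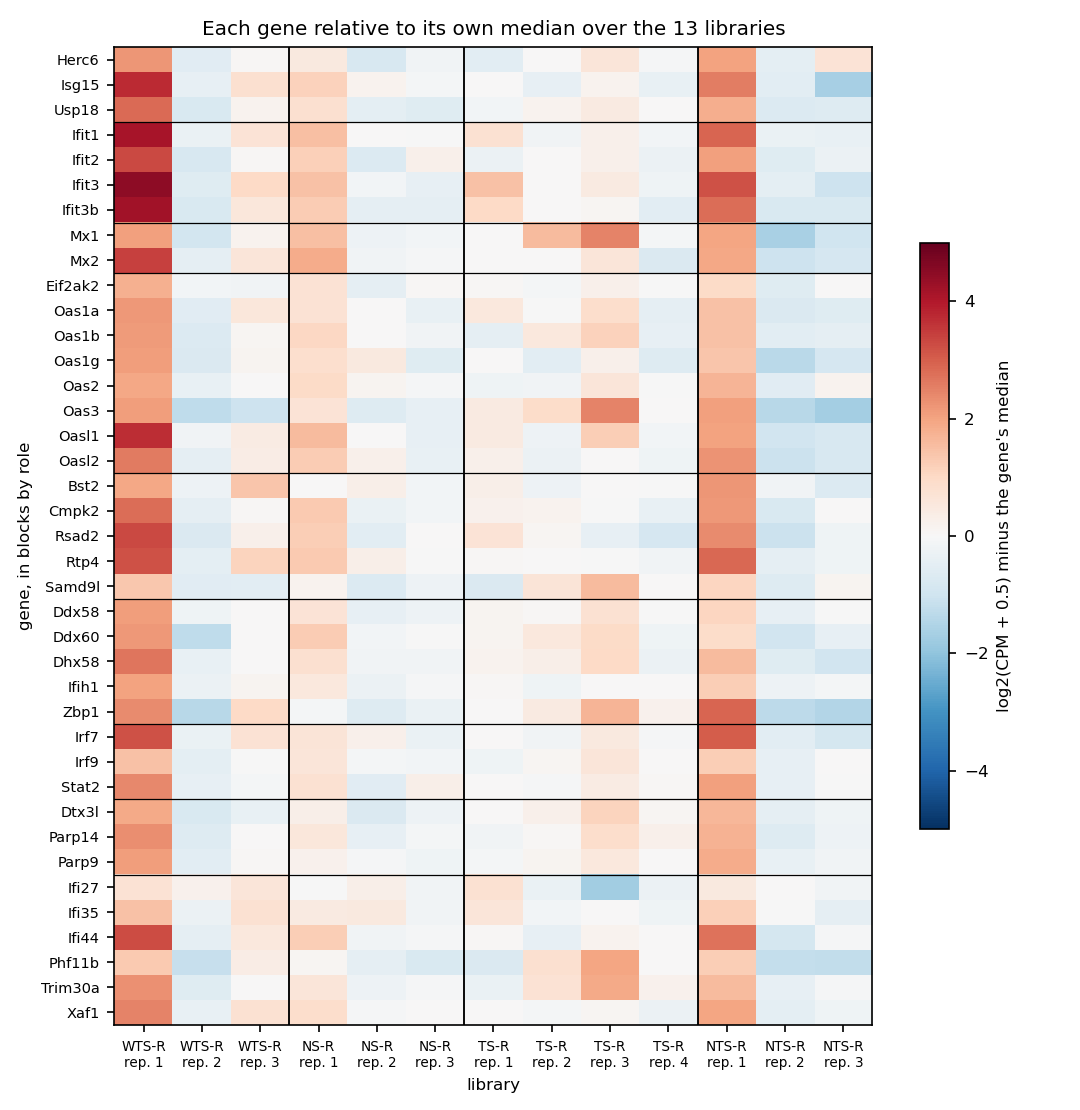
Log2(CPM + 0.5) of each gene minus that gene's median over the 13 libraries (colour, red above and blue below); rows are the 39 genes in blocks by role and columns are libraries in blocks by group. WTS-R replicate 1 and NTS-R replicate 1 are red for nearly every row; the row of Ifi27 is the palest in both, and Mx1, Oas3, Phf11b and Samd9l are reddest in TS-R replicate 3.

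The ISG15 system attaches a small ubiquitin-like protein, Isg15, to other proteins. Isg15 measured 224, 12.0 and 28.3 CPM in the WTS-R libraries, 36.7, 18.3 and 15.3 in the NS-R, 16.2, 12.1, 18.2 and 12.5 in the TS-R and 97.5, 10.9 and 4.79 in the NTS-R libraries. Only WTS-R replicate 1 and NTS-R replicate 1 exceeded the highest NS-R value of 36.7 CPM, and NTS-R also held the lowest library, replicate 3. The protease Usp18, which removes Isg15 and dampens receptor signalling, measured 125, 9.76 and 19.1 CPM in the WTS-R libraries, 29.6, 12.1 and 10.9 in the NS-R, 15.2, 19.1, 23.1 and 16.9 in the TS-R and 60.5, 10.3 and 10.8 in the NTS-R libraries. Herc6, the ligase that attaches Isg15 in mice, measured 59.5, 8.09 and 12.8 CPM in the WTS-R libraries, 17.4, 6.95 and 11.02 in the NS-R, 8.43, 12.3, 19.0 and 12.0 in the TS-R and 51.2, 8.59 and 19.9 in the NTS-R libraries. The same 2 libraries were highest for all 3 genes, by 5.68-fold (Herc6) to 11.1-fold (Isg15) over the rest of WTS-R and by 3.59-fold (Herc6) to 12.4-fold (Isg15) over the rest of NTS-R. Of 100-base windows of Herc6 transcripts, 20.9% also occur in other genes, most often Gm45193, so its counts are less certain.

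The IFIT proteins bind foreign RNA and block its translation, and as a group they stood furthest above the rest of WTS-R. Ifit3 measured 515, 14.9 and 46.8 CPM in the WTS-R libraries, 64.4, 20.9 and 17.4 in the NS-R, 65.0, 23.0, 31.6 and 19.9 in the TS-R and 214, 16.2 and 10.9 in the NTS-R libraries. Ifit1 measured 265, 11.4 and 23.9 CPM in the WTS-R libraries, 42.7, 14.7 and 14.6 in the NS-R, 25.4, 12.8, 17.6 and 13.2 in the TS-R and 113, 11.6 and 11.1 in the NTS-R libraries. Ifit2 measured 159.5, 8.89 and 16.6 CPM in the WTS-R libraries, 36.4, 9.54 and 19.2 in the NS-R, 12.9, 15.8, 18.8 and 12.7 in the TS-R and 67.6, 10.3 and 12.8 in the NTS-R libraries. In WTS-R replicate 1 the 4 IFIT genes were 12.5-fold (Ifit2) to 18.9-fold (Ifit3b) above the other WTS-R libraries, and in NTS-R replicate 1 they were 5.87-fold (Ifit2) to 15.8-fold (Ifit3) above the other NTS-R libraries. NS-R replicate 1 was 2.53-fold to 3.52-fold above the rest of its group for these 4 genes. In TS-R the order differed: TS-R replicate 1 was highest for Ifit1, Ifit3 and Ifit3b, at 1.75-fold, 2.62-fold and 2.25-fold over the other TS-R libraries. Ifit3 and Ifit3b share 31.7% and 27.4% of their 100-base windows with other genes, most often each other. Counting could move reads between them, so their separate values are uncertain.

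The transcription factors of the pathway followed the same libraries. Irf7, which amplifies interferon production, measured 359, 30.9 and 64.2 CPM in the WTS-R libraries, 62.0, 46.9 and 31.1 in the NS-R, 39.1, 34.7, 54.4 and 37.9 in the TS-R and 319, 27.1 and 20.9 in the NTS-R libraries. Stat2, a subunit of the complex that reads the response element, measured 315, 45.3 and 56.0 CPM in the WTS-R libraries, 103, 39.9 and 72.9 in the NS-R, 59.7, 57.0, 79.2 and 62.4 in the TS-R and 250.7, 44.8 and 58.2 in the NTS-R libraries. Irf9, its DNA-binding subunit, measured 121, 31.2 and 43.0 CPM in the WTS-R libraries, 67.1, 40.3 and 39.8 in the NS-R, 37.4, 46.9, 67.0 and 44.6 in the TS-R and 103, 33.2 and 43.7 in the NTS-R libraries. Irf7 was nearly as high in NTS-R replicate 1 as in WTS-R replicate 1, and stood 13.3-fold above the rest of NTS-R, against 7.56-fold in WTS-R. Irf9 varied least of the 3, at 3.25-fold and 2.67-fold.

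The MX proteins are dynamin-like GTPases, and members of the family can trap viral particles. RNA levels do not show whether these mice make working MX protein. The 2 genes differed in their highest library. Mx2 measured 49.1, 2.86 and 6.49 CPM in the WTS-R libraries, 16.1, 3.62 and 3.93 in the NS-R, 4.14, 4.16, 6.59 and 2.31 in the TS-R and 17.4, 1.75 and 2.08 in the NTS-R libraries. Mx1 measured 13.7, 1.31 and 3.34 CPM in the WTS-R libraries, 9.05, 2.36 and 2.62 in the NS-R, 2.90, 9.66, 18.4 and 2.68 in the TS-R and 12.9, 0.608 and 1.20 in the NTS-R libraries. Mx2 was highest in WTS-R replicate 1. Mx1 was highest in TS-R replicate 3, followed by WTS-R replicate 1 and then NTS-R replicate 1. The genes share 1.77% (Mx2) and 1.25% (Mx1) of their 100-base windows with other genes, most often each other.

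Many proteins of the OAS family sense double-stranded RNA and activate RNase L, and Eif2ak2 (PKR) is a kinase that stops translation. Oasl2 measured 205, 24.2 and 43.2 CPM in the WTS-R libraries, 80.3, 39.9 and 25.4 in the NS-R, 39.3, 27.3, 33.1 and 28.6 in the TS-R and 159.7, 15.4 and 19.0 in the NTS-R libraries. Oas2 measured 76.8, 15.1 and 19.6 CPM in the WTS-R libraries, 38.8, 21.7 and 18.8 in the NS-R, 17.0, 17.2, 30.3 and 19.5 in the TS-R and 65.3, 13.2 and 22.3 in the NTS-R libraries. Eif2ak2 measured 77.8, 20.5 and 19.8 CPM in the WTS-R libraries, 37.0, 16.2 and 23.6 in the NS-R, 23.4, 21.0, 26.7 and 22.3 in the TS-R and 44.7, 14.4 and 22.5 in the NTS-R libraries. These 3 were highest in WTS-R replicate 1 and next in NTS-R replicate 1. Oas3 measured 10.8, 0.622 and 0.819 CPM in the WTS-R libraries, 3.77, 1.21 and 1.52 in the NS-R, 3.15, 4.58, 14.3 and 2.19 in the TS-R and 10.6, 0.532 and 0.319 in the NTS-R libraries. Oas3 was highest in TS-R replicate 3, where it stood 4.34-fold above the other TS-R libraries, and its value in NTS-R replicate 3 rests on 4 counts. Oas1a, Oas1b, Oas1g and Oasl1 were highest in WTS-R replicate 1, by 4.33-fold (Oas1a) to 12.8-fold (Oasl1) over the rest of WTS-R. Oas1a and Oas1g share 40.9% and 38.2% of their 100-base windows with other genes, most often each other, so their split is uncertain.

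Of the membrane and nucleotide effectors, Bst2 (tetherin) holds budding virions at the cell surface, Rsad2 (viperin) makes a chain-terminating nucleotide with help from Cmpk2, and Rtp4 and Samd9l restrict viral replication. Bst2 measured 366, 80.5 and 250.4 CPM in the WTS-R libraries, 96.3, 119 and 87.4 in the NS-R, 118, 80.2, 97.4 and 96.2 in the TS-R and 445, 85.9 and 60.2 in the NTS-R libraries. Bst2 was highest in NTS-R replicate 1, and WTS-R replicate 3 also lay above every NS-R and TS-R library. Rtp4 measured 223, 16.9 and 52.0 CPM in the WTS-R libraries, 59.5, 29.2 and 23.8 in the NS-R, 25.0, 23.9, 23.5 and 21.1 in the TS-R and 178, 17.3 and 20.7 in the NTS-R libraries. Samd9l measured 105, 27.8 and 28.4 CPM in the WTS-R libraries, 46.8, 25.3 and 34.8 in the NS-R, 24.9, 64.2, 122 and 41.0 in the TS-R and 86.4, 26.1 and 45.3 in the NTS-R libraries. Rtp4 was highest in WTS-R replicate 1 and lay between 21.1 and 25.0 CPM in the 4 TS-R libraries, while Samd9l was highest in TS-R replicate 3. Rsad2 and Cmpk2 reached 173 and 83.8 CPM in WTS-R replicate 1, which were 11.2-fold and 8.01-fold above the rest of WTS-R, and 90.7 and 55.0 CPM in NTS-R replicate 1. Rtp4 shares 11.2% of its 100-base windows with other genes, most often Gm45338.

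Sensors of nucleic acid lie both upstream and downstream of interferon. Ddx58 (RIG-I) and Ifih1 (MDA5) detect viral RNA, Dhx58 (LGP2) regulates them, and Zbp1 senses Z-form nucleic acid and can start cell death. Ddx58 measured 159.6, 32.5 and 37.5 CPM in the WTS-R libraries, 59.7, 28.0 and 31.7 in the NS-R, 41.0, 39.2, 63.0 and 36.5 in the TS-R and 79.3, 28.4 and 37.0 in the NTS-R libraries. Ifih1 measured 95.2, 18.8 and 25.8 CPM in the WTS-R libraries, 33.8, 18.7 and 21.9 in the NS-R, 24.3, 19.8, 23.1 and 23.7 in the TS-R and 55.4, 19.5 and 21.7 in the NTS-R libraries. Zbp1 measured 67.5, 4.60 and 26.1 CPM in the WTS-R libraries, 11.9, 8.04 and 10.1 in the NS-R, 12.9, 17.8, 43.2 and 15.1 in the TS-R and 101, 4.94 and 4.39 in the NTS-R libraries. Zbp1 was highest in NTS-R replicate 1 and was the gene that most favoured that library, with WTS-R replicate 1 at 0.67 of its value. The other 38 genes had ratios of WTS-R replicate 1 to NTS-R replicate 1 from 0.822 (Bst2) upward, and Ddx58 and Ifih1 stood 2.43-fold and 2.69-fold above the rest of NTS-R in its replicate 1, against 4.56-fold and 4.28-fold in WTS-R. Dhx58 and Ddx60 were highest in WTS-R replicate 1, at 60.5 and 30.6 CPM.

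Parp9 and Parp14 are ADP-ribosyltransferase family members, and Dtx3l is the ubiquitin ligase that pairs with Parp9. Parp14 measured 312, 39.2 and 61.8 CPM in the WTS-R libraries, 92.7, 46.0 and 57.2 in the NS-R, 54.4, 65.0, 114 and 74.0 in the TS-R and 206, 38.8 and 51.3 in the NTS-R libraries. Parp9 measured 163, 26.4 and 39.5 CPM in the WTS-R libraries, 43.8, 36.4 and 32.4 in the NS-R, 36.1, 42.0, 54.8 and 38.2 in the TS-R and 138, 29.8 and 33.4 in the NTS-R libraries. Dtx3l measured 91.9, 14.2 and 18.9 CPM in the WTS-R libraries, 30.4, 14.7 and 20.5 in the NS-R, 24.4, 28.9, 53.9 and 25.8 in the TS-R and 79.0, 17.6 and 20.8 in the NTS-R libraries. The 3 genes lay close together: 4.95-fold to 6.17-fold in WTS-R replicate 1 and 4.13-fold to 4.57-fold in NTS-R replicate 1, each over the rest of its group.

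The remaining 6 genes have varied roles. Ifi27, a mitochondrial protein, measured 1670, 1190 and 1560 CPM in the WTS-R libraries, 1015, 1235 and 910.3 in the NS-R, 1707, 816, 304 and 827 in the TS-R and 1440, 1018 and 892 in the NTS-R libraries. Ifi27 departed from the list: WTS-R replicate 1 was only 1.21-fold above the rest of its group, TS-R replicate 1 was the highest library, and TS-R replicate 3 was the lowest. Those 2 libraries were also the highest and lowest for the 7 adipocyte markers (10.4 and 8.03 on the mean log2 scale), and the part of tissue content in the Ifi27 values was not tested. The ubiquitin ligase family member Trim30a measured 135, 17.7 and 27.3 CPM in the WTS-R libraries, 41.4, 23.0 and 26.2 in the NS-R, 21.5, 45.1, 102 and 31.7 in the TS-R and 83.9, 20.7 and 26.4 in the NTS-R libraries. Ifi35 measured 86.7, 25.8 and 53.8 CPM in the WTS-R libraries, 42.7, 44.0 and 27.6 in the NS-R, 47.9, 28.4, 31.4 and 26.7 in the TS-R and 71.4, 30.9 and 22.7 in the NTS-R libraries. Phf11b measured 13.01, 1.99 and 6.55 CPM in the WTS-R libraries, 5.43, 3.50 and 2.76 in the NS-R, 2.81, 9.11, 21.0 and 4.99 in the TS-R and 12.2, 1.90 and 1.83 in the NTS-R libraries. Ifi35 was highest in WTS-R replicate 1 by a small margin (2.18-fold over the rest of WTS-R), and Trim30a by 5.99-fold. Phf11b was highest in TS-R replicate 3. Of its 100-base windows, 13.8% occur in other genes, most often Phf11c. With 50-base windows the share was 47.0%, most often with Phf11a, so its counts are uncertain. Ifi44 and Xaf1, a gene linked to cell death, were highest in WTS-R replicate 1, at 97.1 and 143 CPM, and next in NTS-R replicate 1, at 65.5 and 99.5 CPM.

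TS-R replicate 3 was thus the highest library for 4 genes, Mx1, Oas3, Phf11b and Samd9l. That library also had the highest level of 10 T cell genes (6.17), 8 B cell genes (7.77) and 7 lymph node stroma genes (6.495). WTS-R replicate 1, by contrast, had the lowest level of T cell genes (0.448), plasma cell genes and natural killer cell genes of all 13 libraries, and NTS-R replicate 1 had the highest T cell gene level after TS-R replicates 2, 3 and 4 (1.77). For 11 genes of plasmacytoid dendritic cells, a main source of type I interferon, WTS-R replicate 1 was lowest (0.845, against 0.909 to 3.31 elsewhere). NTS-R replicate 1 (1.35) lay below the same 3 TS-R libraries and above the other NTS-R libraries (0.919 and 1.15). The defining gene of these cells, Siglech, was at 0.256 and 0.175 CPM in WTS-R replicate 1 and NTS-R replicate 1, about the 3-count floor. Klk1b27 was at 0 in WTS-R replicate 1. Of the 11 genes, 8 passed the filter on low counts, so single values near the floor do not show that these cells were absent. For 10 macrophage genes the 2 libraries (5.04 and 5.42) lay within the 4.60 to 5.66 of the others, and NTS-R replicate 1 was above the other NTS-R libraries (4.71 and 4.60). The level of 6 monocyte genes was 3.18 in each of the 2 libraries, above the others of their own groups (2.08 and 2.67 in WTS-R, 2.18 in both of NTS-R) and below TS-R replicates 2 and 3 (3.67 and 4.15). In tissue RNA, fewer cells of a type and less RNA per cell cannot be told apart. The part of cell content in the interferon-stimulated values was not tested.

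The first comparison asked how fat of recipients of diabetic donor cells (TS-R) differed from that of recipients of wild-type cells (WTS-R). Of the 39 genes, 35 had a lower and 4 (Mx1, Oas3, Phf11b and Samd9l) a higher fitted value in TS-R, with a median log2 fold change of -1.05 beside 0.04 over all genes. None of the 39 passed an edgeR FDR of 0.05, nor did any of the 17270 genes (0.0%). At an unadjusted p under 0.05 there were 8 of the 39, all lower, against 6.56% of all genes lower. Isg15 had the lowest FDR of the list, 0.152, at a log2 fold change of -2.57 (SE 0.99, edgeR). For none of the 39 were the TS-R and WTS-R libraries separated without overlap, although 17.0% of all genes were. DESeq2 called none of the 39 and 11.1% of all genes. limma's voomWithQualityWeights gives less weight to libraries that vary more over all genes tested. It called 1 of the 39, Ifi27, lower (log2 fold change -0.89, SE 0.21, FDR 0.0123), and 8.15% of all genes lower. Its median over the 39 was -1.36, with 36 of 39 genes lower in TS-R. By edgeR Ifi27 was at -0.69 (SE 0.43, FDR 0.369). Oas3 had the highest edgeR value, 0.58 (SE 1.19, FDR 0.815).

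The negative median came with WTS-R replicate 1. With that library left out, the median of the 39 became 0.21, with 28 of 39 genes higher in TS-R. Without TS-R replicate 3 all 39 genes had a lower value in TS-R, at a median of -1.24.

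The second comparison asked what lack of donor Nlrp3 changed when the donor was diabetic (NTS-R against TS-R). The median was 0.55, with 33 of 39 genes higher in NTS-R, none called by edgeR (0.0% of all genes) and 0 of 39 at an unadjusted p under 0.05 (19.6% of all genes). Rtp4 was highest, with a log2 fold change of 1.62 and an SE of 0.84 (edgeR FDR 0.308). No gene of the list separated the groups without overlap (12.6% of all genes did), and DESeq2 called none of the 39 (8.29% of all genes). Without NTS-R replicate 1 the median turned to -0.79, with 37 of 39 genes lower in NTS-R, and Rtp4 to -0.29. By voomWithQualityWeights the median was 0.29, with 30 of 39 genes higher.

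For donors without diabetes, NS-R against WTS-R gave a median of -1.02 with all 39 genes lower in NS-R. None was called by edgeR (0.0% of all genes), 0 of 39 had an unadjusted p under 0.05 (5.55% of all genes), none was free of overlap (14.1% of all genes) and DESeq2 called none (1.1% of all genes). Ifit3 was lowest, with a log2 fold change of -2.48 and an SE of 1.28 (edgeR FDR 0.995). Without WTS-R replicate 1 the median was 0.33, with 32 of 39 genes higher in NS-R, and Ifit3 was at 0.11. With all libraries, the voomWithQualityWeights median was -1.16, with all 39 genes lower in NS-R. This comparison and TS-R against WTS-R share the WTS-R libraries, so their agreement in sign is no independent support.

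The effect of donor diabetes without donor Nlrp3, NTS-R against NS-R, had a median of 0.55 with 36 of 39 genes higher in NTS-R. None was called by edgeR (0.0% of all genes), 0 of 39 had an unadjusted p under 0.05 (6.39% of all genes), none was free of overlap (15.2% of all genes) and DESeq2 called none (1.21% of all genes). Zbp1 was highest, with a log2 fold change of 1.88 and an SE of 1.10 (edgeR FDR 0.921). Without NTS-R replicate 1 the median was -0.89, with 37 of 39 genes lower in NTS-R, and Zbp1 was at -1.08. By voomWithQualityWeights the median was 0.050, with 21 of 39 genes higher in NTS-R.

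The interaction, (NTS-R minus NS-R) minus (TS-R minus WTS-R), tests whether the diabetes difference depended on donor Nlrp3. Its median over the 39 genes was 1.67, with 38 positive. None was called by edgeR (0.0% of all genes) or DESeq2 (6.3% of all genes). At an unadjusted p under 0.05 there were 10 of the 39, all positive, against 4.31% of all genes positive. Ifit3 had the highest value, 3.69 (SE 1.70, edgeR FDR 0.272), and Bst2 the lowest FDR, 0.217, at 2.21 (SE 0.89). Both libraries that stand apart enter this contrast with a positive sign. Without WTS-R replicate 1 the median was 0.31, without NTS-R replicate 1 it was 0.34, and without both it was -1.09, with 36 of 39 genes negative and Ifit3 at -1.46. With all libraries, the voomWithQualityWeights median was 1.30, with 35 of 39 genes positive.

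**Figure D4:**
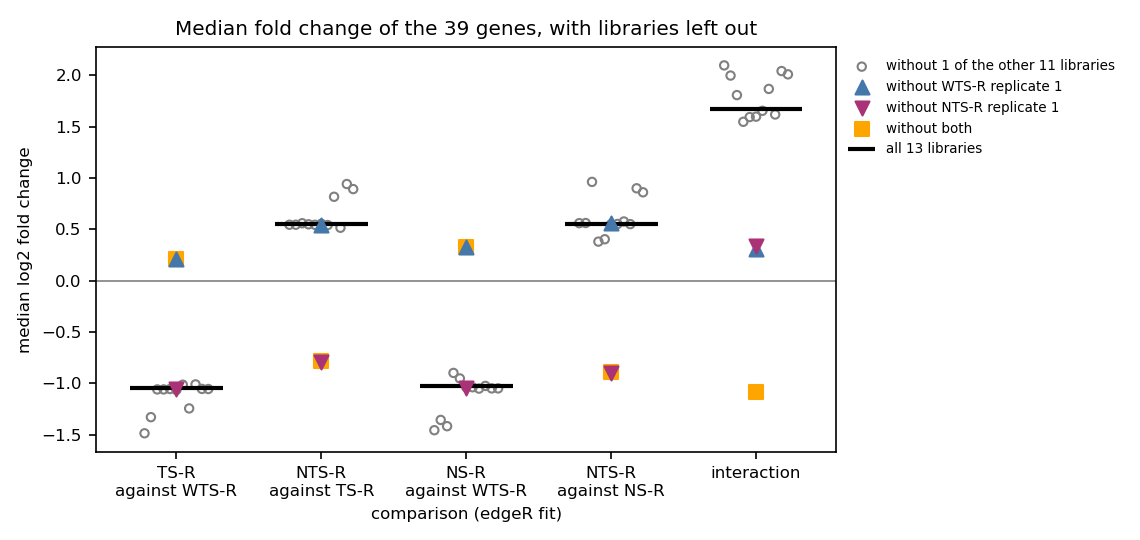
Median edgeR log2 fold change of the 39 genes in each comparison, with all 13 libraries (bar), without WTS-R replicate 1 (blue triangle), without NTS-R replicate 1 (purple triangle), without both (orange square) and without each other library in turn (open circles). Leaving out WTS-R replicate 1 or NTS-R replicate 1 changes the sign in every simple comparison that uses it, as from -1.05 to 0.21 in TS-R against WTS-R, and no other single library does.

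Other parts of the interferon pathway were read the same way. No gene of these lists passed an edgeR FDR of 0.05 in any comparison, nor did any of the 17270 genes tested (0.0%). Of 21 interferon ligands, Ifng and Ifnz had a row in the table, and the others were not analysed here. Ifng, the type II interferon, lay between 0 and 0.529 CPM, with 0.0641 CPM (WTS-R replicate 1) and 0.233 CPM (NTS-R replicate 1), near the floor; Ifnz had 2 counts in all. The receptor genes of type I interferon did not single out these libraries: Ifnar1 reached 52.4 and 46.7 CPM in WTS-R replicate 1 and NTS-R replicate 1 (40.2 to 54.9 elsewhere), and Ifnar2 reached 78.8 and 73.7 CPM (46.8 to 79.5 elsewhere). Jak1, a kinase of the receptor, was at 104 and 113 CPM (83.6 to 293 elsewhere). Ifngr1, of the type II receptor, was at 136 and 168 CPM (98.8 to 142 elsewhere). The transcription factor gene Stat3 was highest in these libraries by a small margin (172 and 170.3 CPM, 89.3 to 166 elsewhere). Among 16 upstream sensors and adaptors and 10 regulators, TS-R replicate 3 had the highest level, and WTS-R replicate 1 and NTS-R replicate 1 lay below it but were the highest of their own groups. For the sensors WTS-R replicate 1 had 3.87 (3.35 and 3.45 in the other WTS-R libraries) and NTS-R replicate 1 had 4.01 (3.42 and 3.49 in the other NTS-R libraries). For the regulators they had 4.99 (4.25 and 4.59) and 5.196 (4.24 and 4.35). More than 2-fold above the rest of the group were 3 of 16 sensors in each library, and 3 and 4 of 10 regulators. Trim25, a ubiquitin ligase of RNA sensing, was 3.32- and 1.68-fold above its group, and the transcription factor gene Irf8 4.60- and 4.74-fold. The adaptor Mavs was at 74.7 and 74.1 CPM (42.3 to 90.2 elsewhere) and the factor Irf3 at 67.2 and 58.5 CPM (54.1 to 76.7 elsewhere). Among the regulators, Samhd1, which breaks down nucleotides, was 3.08- and 5.38-fold above its group. Socs1, a feedback inhibitor of the kinases named after its values were seen, was 4.84- and 10.6-fold above. The phosphatase genes Ptpn11 (138 and 153 CPM, 106 to 181 elsewhere) and Ptpn6 (7.24 and 16.7 CPM, 6.62 to 280.0 elsewhere) were not the highest there, nor was Irf2bp2 (51.6 and 55.9 CPM, 38.3 to 79.2 elsewhere).

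The 2 libraries differed from each other in targets of type II interferon. Of 28 such genes with a mean of at least 1 CPM, 21 were higher in NTS-R replicate 1 than in WTS-R replicate 1, with a median ratio of 1.22 and 4 above 2-fold. Of the 39 type I genes, 2 (Bst2 and Zbp1) were higher in NTS-R replicate 1, the median ratio was 0.66, and 11 were more than 2-fold higher in WTS-R replicate 1. The immunity-related GTPase Iigp1 was at 1115 CPM in NTS-R replicate 1 and 507 CPM in WTS-R replicate 1, against 22.8 to 121 CPM in the other 11 libraries. Its relative Igtp was at 846 and 473 CPM (23.1 to 107 elsewhere), and the guanylate-binding protein gene Gbp2 at 628 and 527 CPM (42.9 to 173 elsewhere). The proteasome activator Psme1 was at 224 and 205 CPM but reached 215 CPM in WTS-R replicate 3. The libraries thus ranked in opposite order for most genes of the 2 lists, which is a description of 1 library against another with no replicate check. The ratio was not counted over all genes, so these counts have no background. Its median was 1.01 for 10 receptor and signalling genes, with 5 higher in NTS-R replicate 1. The 2 libraries also differed in content, as in 7 skeletal muscle genes (7.63 in NTS-R replicate 1, 0.741 in WTS-R replicate 1), and the part of content in the ratios was not tested. The level of the 29 type II genes was 7.12 in NTS-R replicate 1, 6.74 in WTS-R replicate 1 and 3.88 to 5.48 elsewhere.

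**Figure D5:**
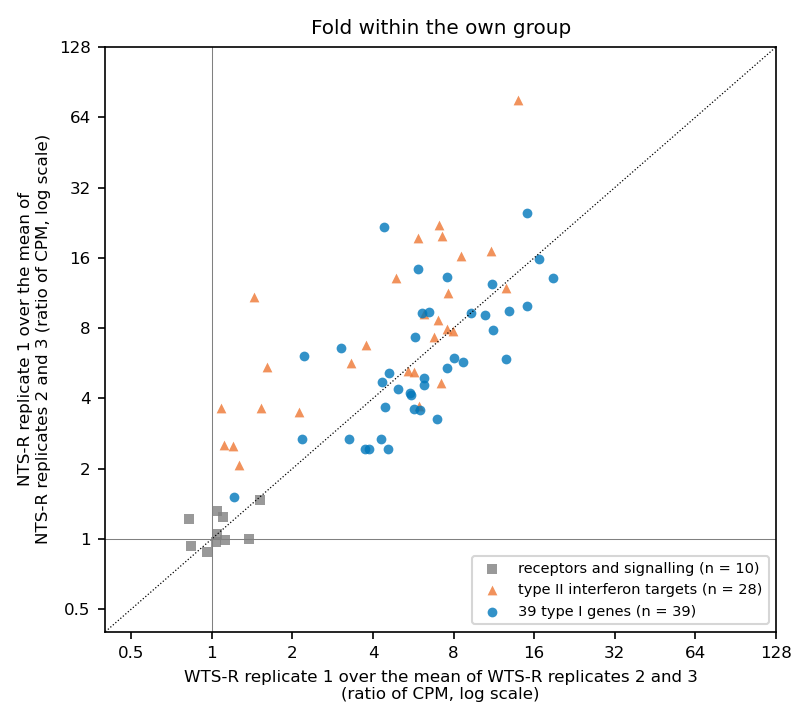
Fold of WTS-R replicate 1 over the mean of WTS-R replicates 2 and 3 (horizontal, log scale) and of NTS-R replicate 1 over the mean of NTS-R replicates 2 and 3 (vertical, log scale), for the 39 type I genes (blue), 28 type II interferon targets (orange) and 10 receptor and signalling genes (grey). The medians of the type I genes are 5.99 and 5.75 and those of the type II targets 5.92 and 7.55, while those of the receptor and signalling genes are 1.04 and 1.03; the dotted line marks equal folds.

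A list of 52 further interferon-induced genes had its highest level in WTS-R replicate 1 (5.36) and its second in NTS-R replicate 1 (5.20), against 3.46 to 4.97 elsewhere. Its genes with the highest mean CPM did not all do so. Ifitm3, which blocks virus entry, was at 501 and 452 CPM (105 to 256 elsewhere), and the surface protein gene Ly6a at 504 and 489 CPM (122 to 266 elsewhere). Ly6e was at 892 and 1102 CPM (225 to 695 elsewhere). Ifi27l2a, a relative of Ifi27, was at 915 and 919 CPM and was higher in TS-R replicate 1 (1082 CPM) and WTS-R replicate 3 (1061 CPM).

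Genes outside the list behaved like it in WTS-R replicate 1. Genes were ordered by the log2 gap between that library and the next highest, among those with a mean of at least 1 CPM. Members of the list took 16 of the first 20 places and 22 of the first 50, led by Oasl1 (gap 1.65), Mx2 (1.47) and Ifit3b (1.40). The 15 non-members with the largest gaps began with AW011738 (gap 1.16) and Ifit1bl2, a relative of Ifit1 (1.11), and included Slfn4, Phf11d, Trim25, Znfx1, Apol9b and Tdrd7. They also held Tor3a, Gm6548, Gm47283, Fam69a, Gm4070, Rpl7a-ps3 and Agrn. For 5 of the 15 (Tor3a, Gm47283, Fam69a, Rpl7a-ps3 and Agrn) the next library was not NTS-R replicate 1. When genes were ordered by how far both libraries stood above the rest, 2 of the first 20 were members. The first non-members, named after their values were seen, were Batf2 (32.6 and 29.8 CPM in NTS-R replicate 1 and WTS-R replicate 1, at most 5.29 elsewhere) and Gbp7 (251.4 and 239.5 CPM, at most 48.2 elsewhere).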

How the data were processed

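RNA of perivascular adipose tissue in 13 samples of recipient mice was sequenced as paired-end libraries, per the labels' protocols. The authors deposited whole-number counts per gene. The submitters' processing notes name HISAT2 and featureCounts with no version. Strandedness, genome build and annotation were all not given in the sources used here. Without a strand setting, reads of overlapping genes cannot be assigned with certainty. Identifiers of 33302 of the 34013 genes had a symbol; 711 had none.

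Groups follow the sample titles. Counts were fitted with edgeR 4.0.16 in R 4.3.3: TMM, filterByExpr, 1 quasi-likelihood fit of all 13 libraries, Benjamini-Hochberg FDR over 17270 genes, called under 0.05 (common biological coefficient of variation 0.389, prior degrees of freedom 3.48). CPM are TMM-scaled, and levels are means of log2(CPM + 0.5). CPM is not per transcript length, so levels of different genes are not compared. Alternatives were DESeq2 1.42.0, limma 3.58.1 voomWithQualityWeights, RLE size factors, no filter, a replicate block, male libraries, libraries left out singly and in pairs, another pseudocount, plain totals, and the list without near-identical copies. The fit was also run on simulated counts with known changes between groups, and the outcome is not reported here. The simulation held no library far from its group, so it does not cover that feature of these data.

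The 39 genes and all other lists were chosen with earlier results of these data known. Every gene of the list is accounted for. Values in every library are given for the 3 genes of each role with the highest mean CPM and for every gene called or highest in a library other than WTS-R replicate 1. Non-members were named as up to 4 of each pathway list by mean CPM, any near 0 that define a list, and the 15 with the largest gap of WTS-R replicate 1 to the next library. Ifnar1, Socs1 and the cell type genes are named beside these, chosen after their values were seen. 1 further pathway gene was left out of the lists and is not reported here.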

Additional observations from a re-analysis of the deposited data

Results flagged for a closer look

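TS-R was the only group with enough libraries (4) for a test of single outlying samples. With Dixon's 95% critical value, 3 of 40 values tested (the 39 genes and their mean level) had a library far from the others, and about 5% are given by chance. All 3 were high values of TS-R replicate 3. Ddx58 was at 63.0 CPM there, against 36.5 to 41.0 CPM in the other TS-R libraries. Zbp1 was at 43.2 CPM, against 12.9 to 17.8 CPM. Dtx3l was at 53.9 CPM, against 24.4 to 28.9 CPM. TS-R replicate 3 also had the highest T cell and B cell gene levels of the series, and the part of those in these values was not tested. No gene of the list passed an FDR of 0.05 in the interaction (edgeR), nor did any of the 17270 genes tested (0.0%).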

How the results depend on the processing

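The count of called genes of the list was 0 in every comparison under every setting run, except 1 (Ifi27, log2 fold change -0.89) by voomWithQualityWeights in TS-R versus WTS-R. The list's median log2 fold change depended on single libraries. With each library left out in turn it ran from -1.48 to 0.21 in TS-R versus WTS-R, -0.79 to 0.94 in NTS-R versus TS-R, -1.46 to 0.33 in NS-R versus WTS-R, -0.89 to 0.96 in NTS-R versus NS-R and 0.31 to 2.10 in the interaction. WTS-R replicate 1 or NTS-R replicate 1 was the library behind each change of sign. Without both of these, a setting chosen after seeing the data, the medians were 0.21, -0.79, 0.33, -0.89 and -1.09 in the same order. Without WTS-R replicate 1 and TS-R replicate 3 they were 0.10 in TS-R versus WTS-R, 0.33 in NS-R versus WTS-R and 0.42 in the interaction. Left-out libraries moved Oas3 in TS-R versus WTS-R from -0.33 to 3.05, Rtp4 in NTS-R versus TS-R from -0.29 to 2.07, Ifit3 in NS-R versus WTS-R from -3.33 to 0.11 and Zbp1 in NTS-R versus NS-R from -1.08 to 2.41. Without WTS-R replicate 1 and NTS-R replicate 1, Rtp4 was at -0.29, Ifit3 at 0.11 in NS-R versus WTS-R and at -1.46 in the interaction, and Zbp1 at -1.08 (-1.075). Without WTS-R replicate 1 and TS-R replicate 3, Ifit3 in NS-R versus WTS-R was at 0.11. In male libraries alone Oas3 in TS-R versus WTS-R was at -0.31.

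Replicate numbers did not clearly pair the samples: 6 of 18 same-numbered pairs had correlated deviations above 0.1 (range -0.257 to 0.269). The libraries highest for the list, WTS-R replicate 1, NTS-R replicate 1 and NS-R replicate 1, all carry the number 1, while TS-R replicate 1 was 6th. Pairs of replicate 1 libraries ran from -0.193 to 0.269, with 0.232 for WTS-R and NTS-R. What samples of the same number share is not stated, and a common factor was not tested beyond the replicate block below. With the replicate block the list's median was -0.46 in TS-R versus WTS-R, -0.024 in NTS-R versus TS-R, -0.64 for NS-R versus WTS-R, 0.19 for NTS-R versus NS-R and 0.53 in the interaction, and no gene of the list was called; over all genes the replicate block called 783 in TS-R versus WTS-R, 70 in NTS-R versus TS-R, 0 in NS-R versus WTS-R, 0 in NTS-R versus NS-R and 20 in the interaction.

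Over all genes edgeR called 0 in each comparison. In the order of comparisons used for the replicate block, DESeq2 called 1906, 1429, 190, 208 and 1086, voomWithQualityWeights 3808, 1632, 18, 14 and 1819, and edgeR with no filter 889, 404, 138, 126 and 92. Male libraries gave 50, 0, 674, 758 and 401. Leaving out single libraries gave 0 to 1917, 0 to 1021, 0 to 503, 0 to 563 and 0 to 455. The causes were not tested. For 4 libraries, the gap to the mean of the rest of the group was followed. They were WTS-R replicate 1, NTS-R replicate 1, NS-R replicate 1 and TS-R replicate 3. Each gap kept its sign under all 29 alternatives, but some of these could not change it. Every gene of the list passed the filter on low counts, so limiting the list to genes that pass left each gap as it was. Each of the 4 was the highest library of its group, so leaving out another library of that group could not turn its gap negative. The sign could have changed only with another pseudocount, plain totals, RLE size factors or the list without near-identical copies. The gap ran from 2.21 to 3.06 for WTS-R replicate 1 and 2.24 to 2.60 for NTS-R replicate 1. All moves were below the spread between replicates (pooled SD 1.06), which these same libraries widen. That spread exceeds the main gaps of NS-R replicate 1 (1.02) and TS-R replicate 3 (0.60), so for them it is no check. With 3 or 4 libraries per group and 1 library far from the rest in 2 groups, a lack of calls does not show that the list was alike between groups.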
